A study of Homo sapiens with 42 samples.

Results

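F-box proteins are the substrate receptors of the SCF ubiquitin ligases. The genes described are those whose symbol in the platform annotation starts with FBXL, FBXO or FBXW followed by a digit and holds no hyphen. The rule gave 60 of the 19775 genes measured: 17 FBXL genes, 33 FBXO genes and 10 FBXW genes. Each was represented by its probe set, among those carrying 1 gene symbol, with the highest mean log2 signal over all 42 arrays. FBXL9P, FBXL21P and FBXW4P1 carry symbols of pseudogenes.

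In an SCF ligase, the scaffold CUL1 holds a RING protein that recruits the ubiquitin-conjugating enzyme, and the adaptor SKP1 binds the F-box of 1 of many receptors. The receptor decides which protein is marked for destruction: FBXL proteins bind substrates through leucine-rich repeats, FBXW proteins through WD40 repeats, and FBXO proteins through other domains. Attachment of the ubiquitin-like protein NEDD8 activates the cullin, so that an inhibitor of neddylation halts the whole class at once. SCF ligases are best known for driving the cell cycle by destroying cyclins, cyclin-dependent kinase inhibitors and transcription factors.

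RNA of A375, an established human melanoma line, was measured on 42 Affymetrix arrays in 14 groups of 3. Transfection lasted 48 hours and used siRNA to BRCA1, to CDT1 or to p53, or the control GL2, which targets firefly luciferase. For the next 26 hours the medium held DMSO alone (0.065%), Nutlin (5 uM), daunorubicin (100 nM) or MLN4924 (650 nM): MLN4924 inhibits the NEDD8-activating enzyme, Nutlin keeps MDM2 from p53, and daunorubicin poisons topoisomerase II. All 4 treatments were given after GL2 and after p53 siRNA, each of these with DMSO in 2 sets of arrays, whereas CDT1 and BRCA1 siRNA were combined with DMSO and MLN4924. Every group holds the same cell line, and siRNA lowers a transcript without deleting its gene. Nothing in the labels tells whether the replicates of a group came from separate cultures, so the p-values cover the spread among these arrays alone, and that spread may be technical. Precision is limited by there being 3 arrays in a group.

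The promoters of the 4 members with the most calls among those listed in the RefSeq promoter table (GRCh38.p14) are shown first, because the values below turn on these genes. The table matched 44 of the 60 members and had no entry for 16. Each stretch of 120 bases lies upstream of the gene's start and is written 5′ to 3′ on the gene's strand. Capitals mark a match to a motif searched on both strands. FBXW7 lies at chr4:152536153-152536272 (minus strand), FBXO5 at chr6:152983640-152983759 (minus strand), FBXO31 at chr16:87392182-87392301 (minus strand) and FBXO45 at chr3:196568480-196568599 (plus strand).
FBXW7: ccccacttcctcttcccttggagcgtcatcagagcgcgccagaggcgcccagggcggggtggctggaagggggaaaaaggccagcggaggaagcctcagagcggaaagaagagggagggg
FBXO5: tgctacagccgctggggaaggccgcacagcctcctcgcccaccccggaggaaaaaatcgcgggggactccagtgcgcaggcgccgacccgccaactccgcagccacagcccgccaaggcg
FBXO31: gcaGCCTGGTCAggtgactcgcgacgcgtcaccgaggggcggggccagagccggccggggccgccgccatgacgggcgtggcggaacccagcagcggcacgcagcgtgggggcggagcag
FBXO45: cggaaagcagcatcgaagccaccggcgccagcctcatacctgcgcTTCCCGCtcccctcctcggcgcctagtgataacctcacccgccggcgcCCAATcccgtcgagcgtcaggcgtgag
Of the 4 E2F-type words searched, the first was TTCCCGC. The second was TTGGCGC, the third of these words was TTCGCGC, and the last was TTGCCGC. The CHR word of mitotic genes was TTTGAA, and CCAAT was searched as such. The core of the antioxidant response element was TGACNNNGC. Matches that share bases were each counted, since ATTGG, the CCAAT word on the opposite strand, can run into TTGGCGC. In FBXO31 the capitals are the antioxidant core read on the opposite strand. In FBXO45 they are an E2F-type word and a CCAAT word. None of these letters occurred in the window of FBXW7 or FBXO5, which says nothing of the factors. Over the whole promoter window of 250 bases before to 50 after the start, an E2F-type word was found in 11 of 44 members (25.0%) and in 17.1% of 15842 protein-coding promoters. The CCAAT word was found in 12 members (27.3%, against 36.4% of all), the antioxidant core in 9 (20.5%, against 14.3%) and the CHR word in 1 (2.27%, against 12.1%). FBXO36 was the member with the CHR word.

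Values are log2 signals of arrays centred on their median gene, and changes are differences in log2 signal ± SE from limma. A gene was called changed when its p, adjusted by Benjamini and Hochberg's method across the 19775 genes, was under 0.05 and its change at least 1.5-fold. A group mean under 5.00, the log2 of the median signal of the whole table, is described as dim, and no member was filtered out for low signal. By this limit 39 members were dim in no group, 10 in some and 11 in all 14. In bulk RNA, fewer cells of a kind and less RNA per cell cannot be told apart.

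The targeted transcripts were low under their siRNA: CDT1 read 6.67, 6.51 and 6.77 after CDT1 siRNA with DMSO against 8.56 to 9.16 in GL2 DMSO arrays, and BRCA1 read 5.98, 5.83 and 5.82 after BRCA1 siRNA with DMSO against 8.52 to 8.95. Some arrays went against their labels or stood apart. Values without them are given beside many of the results that rest on them, though not beside all. BRCA1, the target of 1 of the siRNAs, read 4.70 in the third array of MLN4924 in GL2 cells and 7.95 and 8.24 in the others. It read 8.18 in the third array of MLN4924 in BRCA1 siRNA cells and 4.93 and 5.28 in the others. Replicate 1 of daunorubicin after p53 siRNA had a 5′ to 3′ signal ratio of 0.0118 for ACTB, where the other arrays lay between 0.649 and 0.945. These 3 arrays are called the doubted arrays below. Melanocyte markers were present (8 of 11 measured were above the dim limit, MITF, SOX10 and TYR among them, with a summed level of 10.47 to 12.70). Their summed level moved with MLN4924: it was 11.88 to 12.23 in GL2 DMSO arrays and 10.50 to 10.54 with MLN4924, and 10.47 to 10.75 over the MLN4924 arrays of the other siRNAs. A summed level follows the brightest genes. Of the 11 melanocyte genes measured, MLN4924 lowered 4 and raised 0 in GL2 cells by limma (17.2% of all genes were called, list median -0.35 against 0.08). Among those lowered were ERBB3 (-2.94 ± 0.15), S100B (-2.67 ± 0.20) and SOX10 (-2.47 ± 0.21), picked for the strongest test values. The part of these melanocyte changes in the F-box changes with MLN4924 was not tested. CDH1, KRT19, PTPRC and CD14 were dim on every array. Of the other marker lists, epithelial genes were above that limit for 2 of 8 (summed 7.99 to 8.99), fibroblast genes for 5 of 8 (8.78 to 9.97) and leukocyte genes for 2 of 6 (7.02 to 9.76); their part in the results was not tested. Between the DMSO sets, 3 members differed in GL2 cells (0.941% of all genes were called, 0.364% higher and 0.576% lower in the second) and 0 in p53 siRNA cells by limma (0.278% of all genes, 0.0809% higher and 0.197% lower; 7 members had an unadjusted p under 0.05). The 3 were FBXL14 (0.61), FBXO27 (0.84) and FBXL7 (-0.69).

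In GL2 cells the members divided into a few receptors with large changes and many without. MLN4924 raised 7 members and lowered 5, where 17.2% of all genes were called, 10.2% higher and 7.06% lower. Without the doubted arrays it raised 9 and lowered 4. The share of all genes at that setting is not given, so that shift describes the members alone. Nutlin raised 7 and lowered 6, where 16.4% of all genes were called, 6.71% higher and 9.67% lower. Daunorubicin raised 4 and lowered 4, where again 16.4% were called, 6.49% higher and 9.93% lower. As a share of the 60 members these counts were 20.0%, 21.7% and 13.3%, near the share of all genes. The median change was 0.13 for the members and 0.08 for all genes with MLN4924, 0.08 and 0.01 with Nutlin, and 0.14 and -0.01 with daunorubicin. The 3 comparisons share control arrays.

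After p53 siRNA, MLN4924 raised 7 members and lowered 5, where 25.4% of all genes were called, 17.8% higher and 7.6% lower. With Nutlin 0 members were called by limma (0.0556% of all genes, 0.0405% higher and 0.0152% lower), and 3 members and 1933 genes had an unadjusted p under 0.05. Daunorubicin raised 3 and lowered 4 (12.0% of all genes, 5.67% higher and 6.35% lower), but raised 1 and lowered 2 without the doubted array, and 0 were called when only the groups compared were fitted. Shares of all genes at those other settings are not given, so these shifts too describe the members alone. In CDT1 siRNA cells MLN4924 raised 4 members and lowered 2 (10.6% of all genes, 5.93% higher and 4.63% lower). In BRCA1 siRNA cells it raised 7 and lowered 4 (16.9% of all genes, 9.79% higher and 7.15% lower).

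The siRNAs were compared under DMSO. The p53 siRNA raised 1 and lowered 1 (3.98% of all genes, 1.71% higher and 2.27% lower). The CDT1 siRNA raised 2 and lowered 2 (6.3% of all genes, 2.72% higher and 3.58% lower). The BRCA1 siRNA raised 5 and lowered 3 (8.48% of all genes, 4.11% higher and 4.37% lower).

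**Figure D1:**
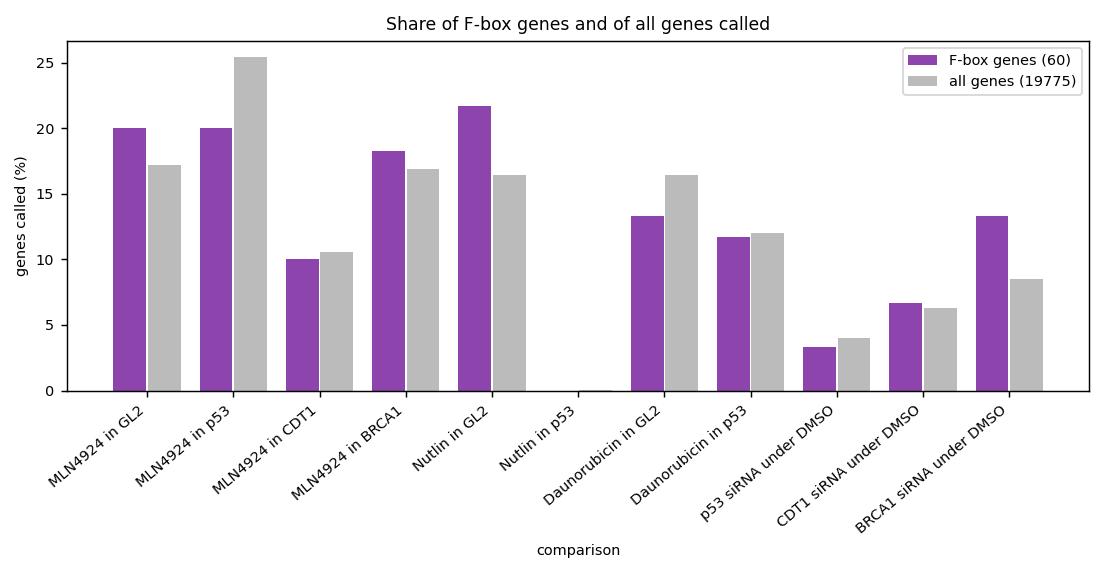
Bars give the percent of the 60 F-box genes (purple) and of all 19775 genes (grey) called in each of 11 comparisons on the x axis. The bars read 20.0% against 17.2% for MLN4924 in GL2 cells and at 0 against 0.0556% for Nutlin in p53 siRNA cells.

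The split between higher and lower depends on how arrays are scaled. Without centring, at the deposited scaling, every gene's change in a comparison moved by the same amount. With MLN4924 this was -0.18 in GL2 cells, -0.42 after p53 siRNA, -0.11 after CDT1 siRNA and -0.18 after BRCA1 siRNA. In GL2 cells it was 0.13 with Nutlin and 0.17 with daunorubicin. The median gene then changed by -0.1, -0.22, -0.01 and -0.02 with MLN4924 in that order. Its change was 0.14 with Nutlin and 0.16 with daunorubicin. MLN4924 then raised 4 and lowered 7 members in GL2 cells (1125 and 2152 of all 19775 genes). After p53 siRNA it raised 2 and lowered 14 (1054 and 3450 genes). The counts were 3 and 4 after CDT1 siRNA (806 and 1225 genes), and 2 and 7 after BRCA1 siRNA (1000 and 1977 genes). In GL2 cells Nutlin then raised 10 and lowered 5 (1879 and 1463 genes), and daunorubicin raised 9 and lowered 4 (2055 and 1352 genes). Changes below are relative to the median gene. Where a call of a member, SKP2, BTRC or CCNF printed below ended at the deposited scaling, this is said beside it. Members' calls that ended with either DMSO set alone as the control are treated likewise. Other genes named from the lists carry no such note, so their calls near 1.5-fold may not hold at that scaling.

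Over the 8 drug comparisons, 32 members were called at least 1 time and 28 in none. The calls numbered 69, of which 39 were higher and 30 lower, and 10 members were called in 3 or more comparisons. Counts over several comparisons, here and below, were not made for all genes. They describe the members and show no excess or lack among them. FBXW7 led with 6 calls, all higher. FBXO5 had 5 calls in both directions, FBXO31 4 calls that were all higher with MLN4924, and FBXO45 4 calls in both directions. None of the 11 members that were dim in all groups was among those called with a drug.

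**Figure D2:**
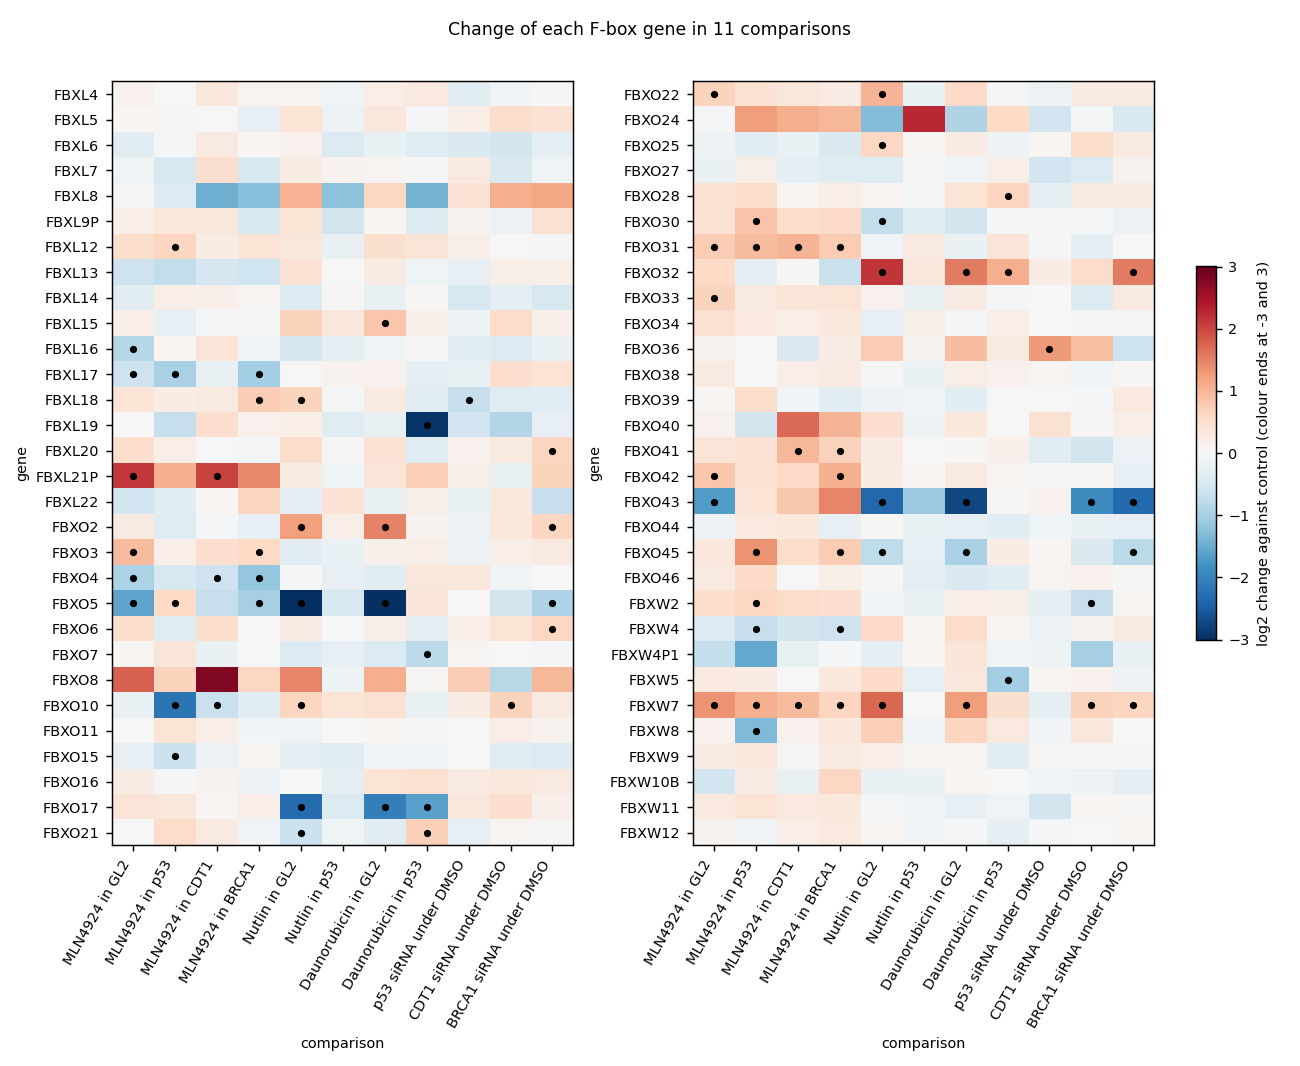
Each row is 1 of the 60 F-box genes, each column 1 of 11 comparisons, and the colour is the log2 change against the control, red for higher and blue for lower, with a black point where the gene was called. FBXW7 is marked in 6 drug columns, FBXO31 in the 4 MLN4924 columns, and the column of Nutlin in p53 siRNA cells holds no point.

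FBXW7, the receptor for cyclin E, MYC, JUN and NOTCH proteins, rose with each drug in GL2 cells. Its log2 signal was 7.64, 7.61 and 7.60 in the first DMSO set and 7.44, 7.78 and 7.63 in the second. It read 9.16, 8.79 and 8.96 with MLN4924, 9.18, 9.56 and 9.29 with Nutlin, and 9.16, 8.69 and 8.75 with daunorubicin. Every treated array lay above every DMSO array. The change was 1.35 ± 0.15 with MLN4924 (2.56-fold, limma adjusted p = 2.9e-08), 1.73 ± 0.18 with Nutlin (3.31-fold, adjusted p = 4.1e-09) and 1.25 ± 0.18 with daunorubicin (2.38-fold, adjusted p = 1.7e-06). Without the doubted arrays the MLN4924 change was 1.36.

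After p53 siRNA the 3 drugs parted for FBXW7. It read 7.37, 7.30 and 7.29 in the first DMSO set, 7.68, 7.08 and 7.33 in the second, 8.29, 8.59 and 8.30 with MLN4924, and 7.22, 7.36 and 7.45 with Nutlin. MLN4924 arrays lay above all DMSO arrays, and Nutlin arrays overlapped them. The change was 1.06 ± 0.15 with MLN4924 (limma adjusted p = 1.3e-06) and 0.02 ± 0.18 with Nutlin (adjusted p = 0.983). The Nutlin change differed between the siRNAs by -1.70 ± 0.25 (adjusted p = 8.6e-06), whereas the MLN4924 change was not called different. With daunorubicin the arrays read 8.41, 7.41 and 7.60, and the difference from GL2 cells was -0.76 ± 0.25 (adjusted p = 0.0327), or -1.06 without the doubted array, which was the highest of the 3. That difference was no longer called when either of the other arrays was left out (-0.56 without replicate 2 and -0.65 without replicate 3), nor when GL2 daunorubicin replicate 1 or any array of the control sets was.

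FBXW7 was also higher after CDT1 siRNA (8.23, 8.23 and 8.47) and BRCA1 siRNA (8.25, 8.36 and 8.19) under DMSO. These arrays lay above all 6 DMSO arrays of GL2 cells, by 0.69 ± 0.15 (limma adjusted p = 0.00209) and 0.65 ± 0.15 (adjusted p = 0.00314). MLN4924 brought it to 9.25, 9.27 and 9.28 after CDT1 siRNA and to 8.98, 8.78 and 8.99 after BRCA1 siRNA. Both sets of arrays stood above their own controls, by 0.96 ± 0.18 (adjusted p = 0.00018) and 0.65 ± 0.18 (adjusted p = 0.00579; 0.61 without the doubted array, 0.47 and not called at the deposited scaling). FBXW7 has 3 other probe sets, of which 2 were not dim and rose in every drug comparison in which it was called.

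FBXO31, known for directing cyclin D1 to destruction after DNA damage, rose with MLN4924 after all 4 siRNAs and was called with neither other drug. It read 6.90, 6.99 and 6.77 and 6.95, 6.83 and 6.91 in the DMSO sets of GL2 cells, and 7.89, 7.64 and 7.41 with MLN4924. After CDT1 siRNA it read 6.51, 6.44 and 6.82 with DMSO and 7.53, 7.70 and 7.62 with MLN4924. MLN4924 and control arrays did not overlap after any siRNA.

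The FBXO31 change was 0.76 ± 0.12 in GL2 cells (limma adjusted p = 1.1e-05), 0.96 ± 0.12 in p53 (adjusted p = 1.5e-07), 1.02 ± 0.14 in CDT1 (adjusted p = 2.7e-06) and 0.76 ± 0.14 in BRCA1 siRNA cells (adjusted p = 0.00011). At the deposited scaling it was 0.57, 0.54, 0.91 and 0.58, of which the CDT1 value was called. Its other probe set rose by 0.47, 0.64, 0.50 and 0.28. Its change was -0.08 ± 0.14 with Nutlin and -0.20 ± 0.14 with daunorubicin in GL2 cells. In GL2 cells the MLN4924 change exceeded that with Nutlin by 0.84 ± 0.16 (adjusted p = 8.3e-05; 0.53 and not called at the deposited scaling) and that with daunorubicin by 0.96 ± 0.16 (adjusted p = 1.2e-05; 0.60 at that scaling).

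FBXO4, reported as a receptor for cyclin D1 and the telomere protein TRF1, fell with MLN4924. It read 7.03, 6.98 and 6.91 in the first and 6.98, 6.86 and 7.27 in the second DMSO set of GL2 cells, and 6.27, 6.18 and 5.68 with MLN4924. After BRCA1 siRNA it read 6.99, 7.0 and 7.09 with DMSO and 5.67, 5.83 and 6.09 with MLN4924. The groups did not overlap in either case.

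The FBXO4 change was -0.96 ± 0.15 in GL2 cells (limma adjusted p = 5.1e-06; -0.78 without the doubted array), -0.63 ± 0.17 in CDT1 (adjusted p = 0.00891) and -1.17 ± 0.17 in BRCA1 siRNA cells (adjusted p = 3.5e-06; -1.28 without the doubted array). In p53 siRNA cells it was -0.49 ± 0.15, short of 1.5-fold. Its 2 other probe sets were dim and also lower in those 3 comparisons. With the mean of its probe sets in place of the brightest, the changes in GL2 and CDT1 siRNA cells were no longer called (-0.70 and -0.84). FBXW11, a β-TrCP receptor that destroys β-catenin and IκB, was called in no drug comparison. It was lower after p53 siRNA by -0.56 ± 0.10 (adjusted p = 0.00024), short of 1.5-fold, with 8.76 to 9.10 across the 6 arrays against 9.35 to 9.64.

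**Figure D3:**
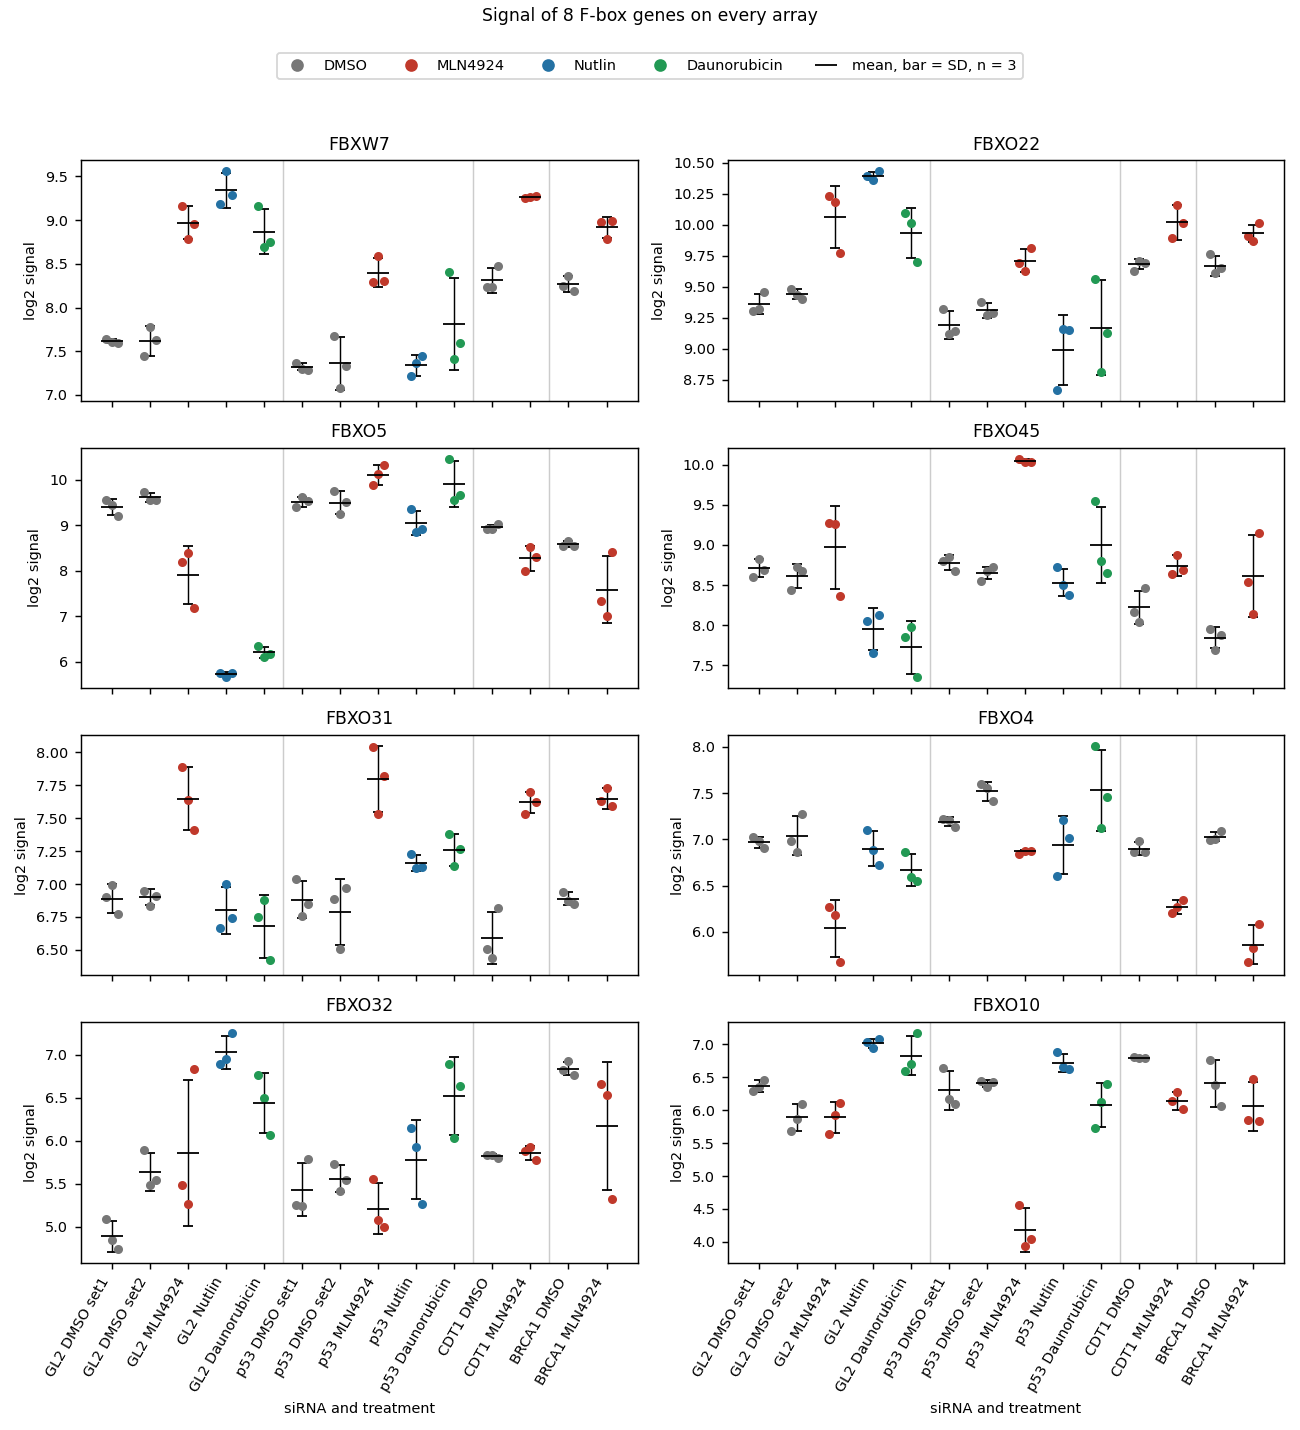
Points are the log2 signal of each array for 8 F-box genes in the 14 groups on the x axis, black dashes are group means and bars the SD of 3 arrays. FBXW7 and FBXO22 stand high with Nutlin in GL2 but not in p53 siRNA cells, FBXO5 falls to 5.72 with Nutlin in GL2 cells, and FBXO31 is raised in each MLN4924 group.

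FBXO5 (EMI1) and FBXO43 (EMI2) are inhibitors of the anaphase-promoting complex, FBXO5 in the somatic cell cycle and FBXO43 in meiosis. FBXO5 read 9.54, 9.45 and 9.19 in the first and 9.72, 9.54 and 9.56 in the second DMSO set of GL2 cells. It read 8.18, 8.38 and 7.18 with MLN4924, 5.75, 5.66 and 5.74 with Nutlin, and 6.34, 6.11 and 6.16 with daunorubicin. All 9 drug arrays lay below all 6 DMSO arrays, and the lowest MLN4924 array was the doubted one. The change was -3.67 ± 0.27 with Nutlin (limma adjusted p = 2.7e-12), -3.19 ± 0.27 with daunorubicin (adjusted p = 8.6e-11) and -1.59 ± 0.23 with MLN4924 (adjusted p = 2.8e-06; -1.22 without the doubted array).

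In p53 siRNA cells FBXO5 did not fall by the test with any of the 3 drugs. It read 9.40, 9.61 and 9.53 and 9.74, 9.24 and 9.5 in the DMSO sets, 9.35, 8.85 and 8.91 with Nutlin, and 10.46, 9.55 and 9.67 with daunorubicin. The daunorubicin arrays overlapped the DMSO arrays, and the Nutlin arrays lay just below the first DMSO set. With MLN4924 it read 9.87, 10.12 and 10.31, above every DMSO array, a change of 0.60 ± 0.23 (limma adjusted p = 0.0407). That rise was 0.18 and not called at the deposited scaling, it was called with neither DMSO set alone (0.59 and 0.61), and it was lost without any of 6 arrays in turn, 2 of them MLN4924 arrays and 4 of them DMSO arrays (0.49 to 0.60).

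The difference in the FBXO5 change between p53 and GL2 siRNA cells was 3.20 ± 0.38 with Nutlin (limma adjusted p = 2.3e-07), 3.57 ± 0.38 with daunorubicin (adjusted p = 2.9e-08; 3.29 without the doubted array) and 2.19 ± 0.33 with MLN4924 (adjusted p = 3.3e-05; 1.82 without it). After BRCA1 siRNA under DMSO it read 8.55, 8.65 and 8.54, below all GL2 DMSO arrays (-0.92 ± 0.23, limma adjusted p = 0.00597). MLN4924 in those cells gave 7.33, 6.99 and 8.41, where the third is the doubted array. The change was -1.0 ± 0.27 (adjusted p = 0.00522) and -1.42 without it, and it was not called without replicate 2 (-0.71). After CDT1 siRNA MLN4924 gave -0.68 ± 0.27 (adjusted p = 0.0837). Its other probe set changed in the same direction in all 5 called comparisons.

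FBXO43 was dim in 13 of the 14 groups, so its values lie near the bottom of the scale. It read 4.73, 2.38 and 3.91 in the first DMSO set of GL2 cells, 1.03, 1.58 and 1.37 with Nutlin, and 0.62, 1.04 and 1.19 with daunorubicin. The drug arrays lay below that set by -2.35 ± 0.64 (limma adjusted p = 0.0069; -1.82 and not called without the first DMSO array) and -2.73 ± 0.64 (adjusted p = 0.00181). With MLN4924 the change was -1.68 ± 0.56 (adjusted p = 0.0222), with arrays that overlapped the controls, and it was not called without any of 3 arrays in turn: MLN4924 replicate 1 (-1.71), the doubted MLN4924 array (-1.41) or DMSO replicate 1 of the first set (-1.41). With the first DMSO set alone it was -1.15 and not called. After BRCA1 siRNA it was -2.34 ± 0.56 (adjusted p = 0.00383) and after CDT1 siRNA -1.89 ± 0.56 (adjusted p = 0.0226), and with the first DMSO set alone these were -1.81 and -1.36, neither called.

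Over the 14 group means, the genes most like FBXO5 were RFC4 (Pearson r = 0.989), STIL (0.985), LOC105379499 (0.981), SMC4 (0.981) and SMC6 (0.981). These means share arrays, centring and dose, and the values are a description. No F-box gene (0 of 60) was among the 500 most alike. A list of 16 mitotic genes, PLK1, AURKA and CCNB1 among them, was called lower in full with each drug in GL2 cells (16 of 16, medians -1.64 with MLN4924, -4.54 with Nutlin and -4.05 with daunorubicin, against 0.08, 0.01 and -0.01 for all genes). In p53 siRNA cells 0 of the 16 were called by limma with Nutlin (0.0556% of all genes), 13 were lower with daunorubicin (12.0%; median -1.22 against 0.01), and with MLN4924 1 was higher and 5 were lower (25.4%; median -0.23 against 0.20).

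FBXO22, known to act on histone demethylases of the KDM4 family and on p53, rose with Nutlin in GL2 cells. It read 9.30, 9.32 and 9.46 in the first and 9.48, 9.43 and 9.40 in the second DMSO set, 10.39, 10.36 and 10.43 with Nutlin, 10.23, 10.18 and 9.77 with MLN4924, and 10.09, 10.01 and 9.70 with daunorubicin. All drug arrays lay above all DMSO arrays. The change was 1.03 ± 0.14 with Nutlin (2.04-fold, limma adjusted p = 1.2e-06) and 0.66 ± 0.12 with MLN4924 (adjusted p = 9.1e-05; 0.80 without the doubted array, 0.48 and not called at the deposited scaling, 0.58 and not called without MLN4924 replicate 1). With daunorubicin it was 0.57 ± 0.14 (adjusted p = 0.00276), just short of 1.5-fold.

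After p53 siRNA, FBXO22 read 8.67, 9.16 and 9.15 with Nutlin against 9.32, 9.12 and 9.14. The arrays overlapped, and the change of -0.20 ± 0.14 was not called. The difference between the siRNAs was -1.23 ± 0.20 with Nutlin (limma adjusted p = 4.7e-05) and -0.60 ± 0.20 with daunorubicin (adjusted p = 0.0372; -0.80 without the doubted array). The daunorubicin difference rests on few arrays: it was called neither without daunorubicin replicate 2 (-0.42) or 3 (-0.58) of p53 siRNA cells, nor without replicate 1 (-0.52) or 2 (-0.56) of GL2 cells, nor without any of 4 DMSO arrays (-0.54 to -0.63). With MLN4924 FBXO22 changed by 0.46 ± 0.12 in p53 siRNA cells, short of 1.5-fold. FBXO42, reported as another receptor for p53, rose with MLN4924 in GL2 cells (0.83 ± 0.16, adjusted p = 9.2e-05, arrays 7.83 to 8.02 against 6.75 to 7.44) and in BRCA1 siRNA cells (1.06 ± 0.18, adjusted p = 3.6e-05). The latter was 1.02 without the doubted array.

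Of a list of p53 targets, 13 of 13 measured were higher with Nutlin in GL2 cells (16.4% of all genes were called; median 2.36 against 0.01 for all genes) and 3 were higher in p53 siRNA cells (0.0556% of all genes; median 0.45 against -0.06). With MLN4924 13 of 13 were higher in GL2 cells (17.2% of all genes; median 1.79 against 0.08) and 4 were higher and 3 lower in p53 siRNA cells (25.4%; median 0.00 against 0.20). With daunorubicin 11 were higher in GL2 cells (16.4%; median 1.89 against -0.01) and 8 in p53 siRNA cells (12.0%; median 0.85 against 0.01). CDKN1A, the textbook p53 target, read 9.01, 9.10 and 9.25 in the first DMSO set of GL2 cells and 7.23, 7.57 and 6.95 in that of p53 siRNA cells, and the groups did not overlap.

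FBXO32 (atrogin-1), the receptor of muscle atrophy, rose with Nutlin and daunorubicin. In GL2 cells it read 5.09, 4.84 and 4.74 in the first DMSO set, 6.89, 6.95 and 7.25 with Nutlin, and 6.76, 6.50 and 6.07 with daunorubicin. The drug arrays lay above that set, by 2.14 ± 0.31 (4.4-fold, limma adjusted p = 3.5e-06) and 1.55 ± 0.31 (adjusted p = 0.00032). The second DMSO set read higher, at 5.89, 5.49 and 5.54, and against it the Nutlin change was 1.39 and still called, and the daunorubicin change 0.80 and not called.

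After p53 siRNA, FBXO32 read 6.15, 5.93 and 5.27 with Nutlin against 5.25, 5.24 and 5.79, and the groups overlapped (0.35 ± 0.31). The Nutlin difference between the siRNAs was -1.78 ± 0.44 (limma adjusted p = 0.00625; -1.17 and not called with the second DMSO sets). Daunorubicin raised it there by 1.09 ± 0.31 (adjusted p = 0.0133). Leaving out the doubted array alone (0.91), or DMSO replicate 1 (1.01) or 2 (1.0), ended that call, though with all 3 doubted arrays left out it was called (0.91).

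After BRCA1 siRNA under DMSO FBXO32 read 6.82, 6.93 and 6.77, above all 6 GL2 DMSO arrays, a change of 1.57 ± 0.27 (limma adjusted p = 0.00013). With MLN4924 it read 5.48, 5.27 and 6.83 in GL2 cells and 6.66, 6.53 and 5.32 in BRCA1 siRNA cells. The third value of each is a doubted array, and it lies nearer to the other group's. Neither change was called (0.59 ± 0.27 and -0.67 ± 0.31). FBXO32 has 6 other probe sets, of which the 2 that were not dim rose in each of its 3 called comparisons.

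FBXO2, FBXO6, FBXO17, FBXO27 and FBXO44 form a family of related receptors, some of which are known to recognise sugar chains on glycoproteins. FBXO2 read 5.81, 5.49 and 5.38 in the first DMSO set of GL2 cells, 6.61, 7.04 and 6.74 with Nutlin, and 7.27, 6.57 and 7.28 with daunorubicin. The drug arrays lay above the DMSO arrays, by 1.23 ± 0.23 (limma adjusted p = 0.00011) and 1.48 ± 0.23 (adjusted p = 8.3e-06). The other probe set of FBXO2 was dim (mean log2 signal 0.55) and changed by 0.06 with Nutlin and 0.23 with daunorubicin. In what follows FBXO2 is again read by its brightest probe set. In p53 siRNA cells it read 5.41 to 5.80 with daunorubicin and 5.56 to 6.04 with Nutlin, against 5.24 to 5.70. The siRNAs differed by -1.37 ± 0.32 with daunorubicin (adjusted p = 0.00279; -1.25 without the doubted array) and by -1.02 ± 0.32 with Nutlin (adjusted p = 0.0366). The latter was not called at the deposited scaling (-1.01) or with the second DMSO sets (-0.70). It was also higher after BRCA1 siRNA, by 0.65 ± 0.20 (adjusted p = 0.0238), though 1 of the 6 GL2 DMSO arrays, at 6.38, lay within the range of 6.13 to 6.56. With the second DMSO set alone it was 0.48 and not called.

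FBXO17 went the other way. It read 5.97, 6.58 and 5.63 in the first DMSO set of GL2 cells, 4.16, 3.15 and 3.90 with Nutlin, and 4.08, 3.78 and 4.19 with daunorubicin. The drug arrays were dim and did not overlap the controls. The change was -2.32 ± 0.38 with Nutlin (limma adjusted p = 2.3e-05) and -2.05 ± 0.38 with daunorubicin (adjusted p = 0.00013). With MLN4924 it read 6.44, 6.90 and 7.16, a change of 0.38 ± 0.33 that was not called. The MLN4924 change exceeded that with Nutlin by 2.70 ± 0.43 (adjusted p = 9.3e-06) and that with daunorubicin by 2.42 ± 0.43 (adjusted p = 3.9e-05).

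After p53 siRNA FBXO17 read 6.18, 6.84 and 6.25 with Nutlin against 6.99, 6.60 and 6.92, which overlap. The Nutlin change differed from that in GL2 cells by 1.91 ± 0.54 (limma adjusted p = 0.0187), a call lost without GL2 DMSO replicate 2 of the first set (1.65), GL2 Nutlin replicate 2 (1.62) or p53 Nutlin replicate 2 (1.70). With daunorubicin it read 5.16, 3.80 and 6.71, a spread wider than in any other group of this gene (SD 1.46), and the change was -1.62 ± 0.38 (adjusted p = 0.00305; -1.59 without the doubted array, not called in a fit of only the groups compared).

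FBXO6 was called in no drug comparison, with MLN4924 changes of 0.53 ± 0.11 in GL2, 0.52 ± 0.13 in CDT1 and -0.37 ± 0.11 in p53 siRNA cells, each short of 1.5-fold. The difference between p53 and GL2 siRNA cells was -0.90 ± 0.16 (limma adjusted p = 0.00018; -0.81 without the doubted array). Arrays read 6.92, 7.10 and 7.28 with MLN4924 in GL2 cells and 6.29, 6.36 and 6.52 in p53 siRNA cells, with no overlap. It was higher after BRCA1 siRNA by 0.63 ± 0.11 (adjusted p = 0.00015). FBXO27 and FBXO44 were called in none of the drug or siRNA comparisons.

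FBXL5, the iron-sensing receptor that destroys IRP2, changed by less than 1.5-fold in every drug and siRNA comparison. Its arrays read 9.52, 9.55 and 9.56 in the first DMSO set of GL2 cells and 9.89, 9.95 and 10.02 with Nutlin, without overlap (0.41 ± 0.14, limma adjusted p = 0.0309). The difference between the siRNAs with Nutlin was -0.59 ± 0.19 (adjusted p = 0.0479), at the edge of both limits, and -0.58 and not called at the deposited scaling. It was not called without any of 11 of the 12 arrays of this contrast in turn (-0.51 to -0.63), p53 siRNA with Nutlin replicate 2 being the exception.

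FBXO45, which pairs with the ligase MYCBP2 in the nervous system, changed in both directions. In GL2 cells it read 8.60, 8.82 and 8.69 in the first DMSO set, 8.05, 7.65 and 8.13 with Nutlin, and 7.85, 7.97 and 7.35 with daunorubicin, with no overlap. The change was -0.76 ± 0.23 with Nutlin (limma adjusted p = 0.0135; not called without DMSO replicate 2, -0.70, or Nutlin replicate 2, -0.61) and -0.98 ± 0.23 with daunorubicin (adjusted p = 0.00146).

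With MLN4924 in p53 siRNA cells FBXO45 read 10.08, 10.04 and 10.04, above DMSO arrays of 8.55 to 8.85, a change of 1.34 ± 0.20 (limma adjusted p = 1.9e-06). In GL2 cells it read 9.28, 9.26 and 8.36 and in BRCA1 siRNA cells 8.54, 8.14 and 9.15, where the third values are the doubted arrays. The change was 0.31 ± 0.20 in GL2 cells, and 0.61 and called without the doubted array. In BRCA1 siRNA cells it was 0.77 ± 0.23 (adjusted p = 0.0115), and 0.50 and not called without the doubted array. It was also not called without DMSO replicate 2 (0.70). The difference between p53 and GL2 siRNA cells with MLN4924 was 1.03 ± 0.28 (adjusted p = 0.0129). It was 0.73 without the doubted arrays and called, but not called when GL2 MLN4924 replicate 3 alone was left out, nor with the first DMSO sets (1.01). With daunorubicin this difference was 1.21 ± 0.32 (adjusted p = 0.00825; 0.93 without the doubted array).

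FBXO10, known for destroying BCL2, fell with MLN4924 in p53 siRNA cells. It read 6.64, 6.17 and 6.10 and 6.45, 6.35 and 6.43 in the DMSO sets and 4.56, 3.93 and 4.05 with MLN4924, which is dim and below every array of the other groups. The change was -2.18 ± 0.17 (limma adjusted p = 1.7e-11). In GL2 cells the MLN4924 arrays read 5.64, 5.93 and 6.11 (-0.23 ± 0.17), and the difference between the siRNAs was -1.94 ± 0.24 (adjusted p = 2.3e-06; -1.83 without the doubted array). Its 3 other probe sets were all dim and changed by -0.73 to 0.26, and with the mean of its probe sets the difference was -0.62 and not called.

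FBXL17, the receptor that removes wrongly paired BTB proteins, fell with MLN4924. It read 8.04, 8.09 and 7.99 after BRCA1 siRNA with DMSO and 7.10, 6.83 and 7.11 with MLN4924. In p53 siRNA cells it read 7.17 to 7.59 across the 6 DMSO arrays and 6.36, 6.33 and 6.68 with MLN4924. Neither pair overlapped. The change was -1.02 ± 0.17 (limma adjusted p = 2.5e-05; -1.07 without the doubted array) and -0.97 ± 0.15 (adjusted p = 2.8e-06). In GL2 cells it was -0.62 ± 0.15 (adjusted p = 0.00138), and -0.55 and not called without the doubted array. It was also not called without DMSO replicate 2 of the first set (-0.52) or with the second set alone (-0.57). After CDT1 siRNA it was -0.23 ± 0.17.

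Among the remaining members called with MLN4924 in GL2 cells, FBXO3 rose by 0.94 ± 0.15 (limma adjusted p = 8.9e-06; 0.81 without the doubted array). Its arrays ran from 8.59 to 9.05 against 7.64 to 7.98. The MLN4924 change of FBXO3 was lower in p53 siRNA cells by -0.75 ± 0.21 (adjusted p = 0.0158; -0.62 without the doubted array; -0.75 and not called with the first DMSO sets). FBXO33 rose by 0.66 ± 0.10 (adjusted p = 3.5e-06), but by 0.48 at the deposited scaling, where it was not called. FBXL21P rose by 2.12 ± 0.60 from dim DMSO groups to a mean of 5.14, just above the dim limit. FBXL16 changed by -0.85 ± 0.29, from means of 5.31 and 5.64 to a dim 4.63. With the first DMSO set alone FBXL21P (1.72), FBXL16 (-0.68) and FBXO33 (0.58) were not called.

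MLN4924 in p53 siRNA cells also raised FBXO30 (0.86 ± 0.14, limma adjusted p = 8.3e-06), FBXL12 (0.65 ± 0.11) and FBXW2 (0.61 ± 0.13). None of these was called at the deposited scaling, where they changed by 0.44, 0.23 and 0.19, nor was FBXW2 with the first DMSO set alone (0.52). It lowered FBXW4 (-0.69 ± 0.13, adjusted p = 5.9e-05) and the dim FBXW8 (-1.32 ± 0.37), a partner of CUL7, and FBXO15 (-0.65 ± 0.20). FBXW8 was -0.88 and not called with the second DMSO set alone. FBXW4 also fell in BRCA1 siRNA cells (-0.63 ± 0.15), though by -0.57 and without a call when the doubted array was left out. FBXO41 rose after CDT1 siRNA (0.99 ± 0.18, adjusted p = 0.00012) and BRCA1 siRNA (0.69 ± 0.18, adjusted p = 0.00335; 0.51 and not called at the deposited scaling). In BRCA1 siRNA cells FBXL18 (0.73 ± 0.22) and FBXO3 (0.59 ± 0.17) rose too, with 0.55 and 0.41 and no call at the deposited scaling. In CDT1 siRNA cells the dim FBXL21P rose (2.02 ± 0.69; 1.91 and not called at the deposited scaling) and FBXO10 fell (-0.66 ± 0.20, adjusted p = 0.0204), a call lost without any of 5 of the 6 arrays in turn.

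With Nutlin in GL2 cells FBXO30 (-0.71 ± 0.16) and FBXO21 (-0.65 ± 0.15) fell, while FBXO25 (0.62 ± 0.13), FBXO10 (0.65 ± 0.20) and FBXL18 (0.67 ± 0.22) rose (limma adjusted p from 0.00042 to 0.0276). FBXO21 was -0.52 and not called at the deposited scaling. FBXL18 read 7.59, 7.85 and 7.99 with Nutlin, above 7.28, 7.26 and 6.90 in the first DMSO set but not above 7.68, 7.72 and 7.98 in the second. Against that second set FBXL18 changed by 0.02 and FBXO25 by 0.50, neither called, and FBXO10 by 1.13. The call of FBXO10 was lost without DMSO replicate 1 (0.61) or Nutlin replicate 3 (0.62). FBXL15 rose with daunorubicin (0.83 ± 0.27, adjusted p = 0.0221), with overlapping arrays of 6.32 to 7.15 against 5.41 to 6.39. Daunorubicin in p53 siRNA cells lowered FBXL19 (-2.95 ± 0.61, adjusted p = 0.00078), which was -1.45 and still called without the doubted array. FBXW5 (-1.04), FBXO7 (-0.78), FBXO28 (0.64) and FBXO21 (0.71) were called there with all arrays and not without the doubted one (-0.29, -0.56, 0.36 and 0.42), and FBXW5 was also not called with the second DMSO set alone (-0.67). Its low 5′ to 3′ ratio stands beside these values, and its part in them was not tested.

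Under DMSO, p53 siRNA lowered FBXL18 (-0.68 ± 0.16, limma adjusted p = 0.00394, overlapping arrays) and raised the dim FBXO36 (1.27 ± 0.40, adjusted p = 0.0363). FBXL18 differed by -0.03 between the first DMSO sets and by -1.32 between the second, so the call rests on the second sets. FBXO36 was called with neither set alone (1.37 and 1.17). CDT1 siRNA lowered FBXW2 (-0.70 ± 0.13, adjusted p = 0.00042) and raised FBXO10 (0.67 ± 0.17, adjusted p = 0.00769; 0.43 and not called with the first DMSO set). BRCA1 siRNA raised FBXL20 (0.64 ± 0.11, adjusted p = 0.00018) and lowered FBXO45 (-0.82 ± 0.20, adjusted p = 0.00402). The CDT1 and BRCA1 comparisons share the GL2 DMSO arrays.

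**Figure D4:**
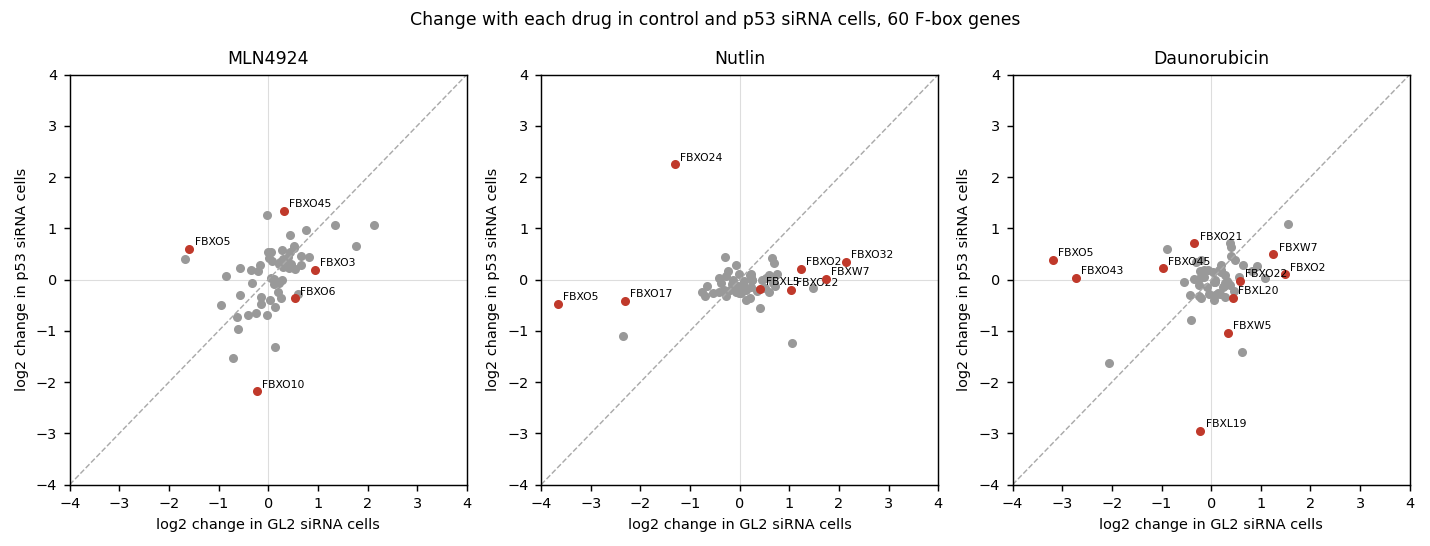
Each point is 1 of the 60 F-box genes, with its log2 change in GL2 siRNA cells on the x axis and in p53 siRNA cells on the y axis for each drug; the dashed line marks equal change, and red points with names are genes whose change was called different. With Nutlin FBXW7 lies at 1.73 and 0.02 and FBXO5 at -3.67 and -0.47, while with MLN4924 FBXW7 is unnamed at 1.35 and 1.06.

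Tested directly, the change between p53 and GL2 siRNA cells was higher for 3 members and lower for 5 with Nutlin (10.0% of all genes were called, 5.3% higher and 4.72% lower). It was higher for 4 and lower for 6 with daunorubicin (15.3%, of which 9.65% higher and 5.69% lower), and higher for 2 and lower for 3 with MLN4924 (10.4%, of which 6.96% higher and 3.41% lower). For CDT1 against GL2 siRNA 0 members were called by limma (1.22% of all genes, 0.521% higher and 0.698% lower), and 9 had an unadjusted p under 0.05. For BRCA1 against GL2 siRNA 1 was called higher, the dim FBXO43 (1.86% of all genes, 0.632% higher and 1.23% lower). Both MLN4924 groups of this contrast hold a doubted array, and without the doubted arrays 0 members were higher and 2 lower. Between drugs in GL2 cells, the MLN4924 change was higher than that with Nutlin for 10 members and lower for 8 (25.7% of all genes, 17.0% higher and 8.69% lower). It was higher than that with daunorubicin for 7 and lower for 6 (27.2% of all genes, 18.2% higher and 9.03% lower). Without the doubted arrays the MLN4924 change was higher for 10 and lower for 7 against either drug. No share of all genes is given for the counts without the doubted arrays. Without centring, the last 2 splits were 5 to 13 and 5 to 12, against 1804 to 3188 and 1745 to 3428 over all genes. Every gene's value moved by -0.31 and -0.35 in these comparisons. The MLN4924 split between p53 and GL2 siRNA was then 2 to 7, against 653 to 1421 over all genes, with every value moved by -0.23.

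Of the F-box proteins with other symbols, 7 were measured. MLN4924 raised 2 of them and lowered 1 in GL2 cells (17.2% of all genes were called; list median 0.27 against 0.08 for all genes), and raised 4 and lowered none after each other siRNA (25.4%, 10.6% and 16.9% of all genes after p53, CDT1 and BRCA1 siRNA; medians 0.79, 0.64 and 0.63 against 0.20, 0.10 and 0.16). The risers included the histone demethylases KDM2A (0.89 ± 0.13 in GL2 cells) and KDM2B (1.13 ± 0.12 in p53 siRNA cells) and LMO7 (1.75 ± 0.47 in GL2 cells). Nutlin and daunorubicin each lowered 2 and raised none in GL2 cells (16.4% of all genes in each). SKP2, the receptor for the inhibitor p27, read 10.29, 10.24 and 10.24 in the first DMSO set of GL2 cells and 8.95, 8.85 and 8.93 with Nutlin, with no overlap (-1.34 ± 0.19, limma adjusted p = 2.3e-06). With daunorubicin it fell by 1.64 on the log2 scale (-1.64 ± 0.19), and MLN4924 raised it in p53 siRNA cells (0.95 ± 0.17) and CDT1 siRNA cells (0.63 ± 0.19). At the deposited scaling these were 0.54 and 0.51, neither called. CCNF (cyclin F) fell with Nutlin (-3.92 ± 0.42), daunorubicin (-3.66 ± 0.42) and MLN4924 (-1.61 ± 0.36) in GL2 cells. Without the doubted array its MLN4924 change was -1.2 and still called. BTRC, the other β-TrCP, rose with MLN4924 in CDT1 siRNA cells (0.71 ± 0.13, adjusted p = 1.4e-04) and was lower after CDT1 siRNA (-0.69 ± 0.11).

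Of the SCF core list, the measured genes were the scaffold CUL1, the adaptor SKP1, the RING protein RBX1 and the ubiquitin-conjugating enzymes CDC34 and UBE2R2. Of these 5 genes, 0 were called with MLN4924 in GL2 cells by limma (17.2% of all genes; list median 0.27 against 0.08; CUL1, RBX1 and UBE2R2 had an adjusted p under 0.05 but changed by less than 1.5-fold). CUL1 fell with Nutlin (-0.69 ± 0.10, adjusted p = 3.0e-06) and daunorubicin (-0.71 ± 0.10). Of 22 genes of neddylation and its removal, MLN4924 raised 2 in GL2 and 7 in p53 siRNA cells and lowered none (17.2% and 25.4% of all genes were called; medians 0.30 and 0.47 against 0.08 and 0.20 for all genes), with DCUN1D2 at 0.73 ± 0.14 and 1.21 ± 0.14. Nutlin raised 1 and lowered 7 in GL2 cells (16.4% of all genes; median -0.21 against 0.01), among them DCUN1D4 (-1.02 ± 0.12), COPS3 (-0.76 ± 0.10) and NAE1 (-0.69 ± 0.12), the last a subunit of the enzyme that MLN4924 inhibits. Of 19 transcripts of textbook SCF substrates, Nutlin raised 2 and lowered 10 in GL2 cells (16.4% of all genes; median -0.78 against 0.01), with CCNE2 at -4.94 ± 0.22. MLN4924 raised 10 and lowered 2 in p53 siRNA cells (25.4% of all genes; median 0.70 against 0.20), with MYC at 3.42 ± 0.14 and JUN at 1.86 ± 0.10. In GL2 cells MLN4924 raised 3, MYC (1.28 ± 0.14) and JUN (1.22 ± 0.10) among them, and lowered 1, SREBF1 (-1.44 ± 0.12), where 17.2% of all genes were called and the median was 0.08 for the list and for all genes.

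The choice of probe set bore on some of these values. The 60 members had 145 probe sets, 39 members having several. Of the 69 drug calls, 55 belonged to a member with another probe set and 39 to a member with another probe set that was not dim. In 36 of these 39 all such probe sets changed in the same direction. The exceptions were FBXL18 with Nutlin in GL2 cells (1 of 2 such probe sets in the same direction), FBXO28 with daunorubicin in p53 siRNA cells (3 of 4) and FBXO3 with MLN4924 in BRCA1 siRNA cells (3 of 4). Dim probe sets could differ too, as for FBXO41 with MLN4924 in BRCA1 siRNA cells (-0.42 and 0.11). FBXO17 and FBXO43 have no other probe set.

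Over all drug and siRNA comparisons, 25 members were never called, 10 of them dim in all 14 groups. Not being called does not show a steady level: the group means of FBXO8, dim throughout, spanned 2.89, and those of FBXO24, FBXL8 and FBXW4P1 spanned 2.47, 2.17 and 2.0. Among members that were dim in no group, the narrowest spans were those of FBXO38 (0.48), which acts on the immune receptor PD-1, FBXO11 (0.55), a receptor for BCL6, FBXW12 (0.55) and FBXL5 (0.56). The other probe set of FBXW12 was dim, with a mean log2 signal of 1.18. The median span over the 60 members was 1.20. By class, MLN4924 in GL2 cells raised 1 and lowered 2 of 17 FBXL genes, raised 5 and lowered 3 of 33 FBXO genes, and raised 1 of 10 FBXW genes. Of all genes 10.2% were called higher and 7.06% lower in that comparison.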

How the data were processed

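The authors deposited 1 linear signal intensity per probe set and array, for which the submitters' processing notes name Affymetrix Expression Console (version not given in the sources used here); the trimmed mean was 150.0 on every array. The deposited intensity of 0, in 147 values, was raised to 0.1 before log2. Of 54675 probe sets, 41091 carried 1 gene symbol, 1801 several, 11721 none and 62 were controls. Arrays were centred on their median gene, and limma 3.58.1 (R 4.3.3) was fitted to all 14 groups at once, with Benjamini-Hochberg adjustment over 19775 genes. Nutlin and daunorubicin were set against the first DMSO set. MLN4924 in GL2 and p53 siRNA cells, and the siRNA comparisons, used both sets. The labels do not tie a set to a treatment. In GL2 cells the 5′ to 3′ signal ratio of ACTB was 0.806 to 0.886 in the first and 0.900 to 0.934 in the second DMSO set. It was 0.888 to 0.905 with MLN4924, 0.697 to 0.732 with Nutlin and 0.727 to 0.769 with daunorubicin. The part of such differences in the comparisons was not tested. In simulated data for Nutlin in GL2 cells, 17.9% of 67 genes changed 1.5-fold, 55.2% of 67 changed 2-fold and 87.9% of 66 changed 4-fold were recovered, with 7 false calls among 19775 genes. Far fewer genes changed there than the 16.4% called in the data, and a 1.5-fold change lies at the limit itself. The simulated noise was independent with the same spread on every array. The recovery rates therefore hold for that setting alone.

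The members and lists were chosen with earlier results of these data known. The text names members with calls, members of fixed role groups, and a few with small spans. Members given for their small span, and genes named from the lists, were chosen after their values were seen. Alternatives covered scaling, probe sets, pseudocount, thresholds, control sets, array weights, the replicate block and left-out arrays. Same-numbered arrays did not deviate together (median r of -0.01, 0 and -0.01 over 91 pairs for each number).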

Additional observations from a re-analysis of the deposited data

Results flagged for a closer look

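Each value here is a log2 change in p53 or BRCA1 siRNA cells less that in GL2 cells, called different by limma's test of the difference itself. With MLN4924, p53 less GL2 siRNA gave 2.19 for FBXO5, 1.03 for FBXO45, -1.94 for FBXO10, -0.90 for FBXO6 and -0.75 for FBXO3. BRCA1 less GL2 siRNA gave 3.14 for FBXO43 (adjusted p = 0.0479), which was not called without the doubted arrays (2.33) or with the first DMSO set alone (2.61).

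With Nutlin, p53 less GL2 siRNA gave 3.20 for FBXO5, 1.91 for FBXO17, -1.78 for FBXO32, -1.70 for FBXW7, -1.23 for FBXO22, -1.02 for FBXO2 and -0.59 for FBXL5. FBXO24 gave 3.56, from values that were dim in all 14 groups, and was 2.23 and not called with the second DMSO sets.

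With daunorubicin, p53 less GL2 siRNA gave 3.57 for FBXO5, 2.76 for FBXO43, 1.21 for FBXO45, 1.05 for FBXO21, -2.73 for FBXL19, -1.38 for FBXW5, -1.37 for FBXO2, -0.79 for FBXL20, -0.76 for FBXW7 and -0.60 for FBXO22. Without the doubted array FBXO43 was 1.72 and FBXW5 -0.62, neither called, and FBXL19 was -1.22. With the second DMSO sets FBXL19 was -1.75 and FBXO43 2.02, neither called.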

How the results depend on the processing

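Counts of members called moved by over 1.5 times under these settings. Calls over all genes depend on the settings too, and their shares are not given here or in the next paragraph. The counts therefore describe the members alone and do not set them apart from other genes. With a 2-fold limit they were 4, 4, 2 and 4 for MLN4924 in GL2, p53, CDT1 and BRCA1 siRNA cells, 7 for Nutlin in GL2 cells, 4 for daunorubicin in p53 siRNA cells, and 1, 1 and 2 for p53, CDT1 and BRCA1 siRNA. They were 3 for the MLN4924 difference of p53 and GL2 siRNA, and 7 and 4 for the MLN4924 change set against that of Nutlin and of daunorubicin. With no fold limit they were 21, 27, 13 and 17 for MLN4924 in that order, 16 for daunorubicin in GL2 cells, and 7 and 11 for p53 and CDT1 siRNA. For MLN4924 in p53 siRNA cells a pseudocount of 16 gave 6, in CDT1 siRNA cells array weights gave 10, and in BRCA1 siRNA cells the mean of probe sets gave 5. For Nutlin in p53 siRNA cells the second DMSO set and both sets each gave 1, and for daunorubicin in GL2 cells the deposited scaling gave 13. For daunorubicin in p53 siRNA cells the mean of probe sets, probe sets without a suffix and array weights each gave 4, leaving out the doubted arrays 3, and fitting only the groups compared 0. For p53 siRNA the mean of probe sets and the first DMSO set gave 0, probe sets without a suffix, the pseudocount and leaving out dim genes 1, and the second DMSO set 4. For CDT1 siRNA the mean of probe sets gave 1 and the second DMSO set 8. For differences from GL2 cells, MLN4924 in p53 siRNA cells gave 9 at the deposited scaling, 8 with array weights and 3 with the mean of probe sets; in CDT1 siRNA cells either DMSO set gave 1 and array weights 2. In BRCA1 siRNA cells it gave 2 at the deposited scaling, with the second DMSO set and without the doubted arrays, and 0 with quantile normalization, the mean of probe sets, probe sets without a suffix, the pseudocount or only the groups compared. Nutlin in p53 siRNA cells gave 5 with the mean of probe sets and 4 with probe sets without a suffix, and daunorubicin 2 with only the groups compared. The cause was not tested.

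With the replicate number as a block, the MLN4924 difference of BRCA1 and GL2 siRNA cells fell from 1 to 0 members, and no other count moved by over 1.5 times. Leaving out 1 array at a time gave 10 to 13, 10 to 15, 4 to 7 and 9 to 11 for MLN4924 in GL2, p53, CDT1 and BRCA1 siRNA cells, 10 to 14 and 0 to 0 for Nutlin in GL2 and p53 siRNA cells, 7 to 10 and 2 to 8 for daunorubicin, and 1 to 3, 3 to 5 and 7 to 8 for p53, CDT1 and BRCA1 siRNA. The differences gave 4 to 6, 0 to 0 and 0 to 3 for MLN4924 in p53, CDT1 and BRCA1 siRNA cells, 4 to 9 for Nutlin, 6 to 12 for daunorubicin, and 16 to 19 and 10 to 16 between drugs. Of values for single members, 3 reversed: FBXO43 with daunorubicin in p53 siRNA cells (-1.77 with the second DMSO set), and FBXO4 for MLN4924 less Nutlin (0.19) and less daunorubicin (0.48) with the mean of probe sets. Another 224 were no longer called, 90 became called and 5731 kept their direction and side of the threshold. Members near background have values of little precision.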
